A study of Mus musculus with 12 samples.

Results

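A set of 28 genes that make cholesterol and fatty acids was followed across 12 mouse brain tumours. The set was listed by symbol: 7 enzymes of the mevalonate route, 11 enzymes from squalene to cholesterol, 4 genes of sterol regulation and transport, and 6 enzymes of fatty acid synthesis. A gene was kept where its deposited CPM, the read count scaled to library size, was 1 or more in 3 or more of the 12 libraries. All 28 genes met this rule, among 15232 that did so of 24054 in the table.

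Each tumour came from cells injected into the striatum of a C57BL/6 mouse and was collected once the animal showed symptoms. The labels name the line ms7080, while the protocol text speaks of BC cells, and all 12 libraries are labelled female. The 4 groups hold 3 libraries each, and each library was taken as 1 mouse. The young mice were 2 months old and untreated. The old mice were 16 months old and were either untreated, dosed at 300 mg per kg per day with NMN (nicotinamide mononucleotide, from which cells make NAD), or joined to another mouse by parabiosis, a surgical link that lets both animals share blood. The partner's age and the length of NMN treatment are not given in the sources used here. Commercial suppliers provided the young animals and an ageing programme the old ones, so age and source cannot be told apart.

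Cholesterol is built from acetyl-CoA through mevalonate, farnesyl diphosphate and squalene, and fatty acids are built from the same acetyl-CoA through malonyl-CoA. The genes of both routes are switched on by the transcription factors encoded by Srebf2, which acts mainly on the sterol enzymes, and Srebf1, which acts mainly on the fatty acid enzymes. Insig1 holds their precursors in the endoplasmic reticulum when sterols are plentiful. The brain makes nearly all of its own cholesterol, since blood lipoproteins do not cross the blood-brain barrier, and myelinating oligodendrocytes use much of it.

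Promoters were searched for motifs known from this control. RefSeq windows of the GRCm38.p6 build, from 250 bases before to 50 bases after the annotated start, were found for 22 of the 28 genes, as 27 windows. The letters TCACNCCA, a short form of the sterol regulatory element chosen after the windows had been read, were searched on both strands and occurred in the windows of 3 genes, Hmgcs1, Msmo1 and Srebf2. That is 11.1% of the genes' windows and 4.36% of all 32851 windows in the table. The CCAAT box bound by NF-Y, a partner of these factors, was in 74.1% of the genes' windows and 37.4% of all windows. The GC box GGGCGG was in 74.1% and 35.7%, and the E-box CACGTG was in 14.8% and 7.15%, with matches in Dhcr7, Hsd17b7, Insig1 and Sc5d. The windows of the 3 genes with the sterol element are shown, with that of Ebp, the sterol isomerase whose groups differed most, which held CCAAT boxes and no match to the sterol element. Capitals mark the sterol element and the CCAAT box, which reads ATTGG on the opposite strand. None of the matches of the one overlapped a match of the other.
Hmgcs1 (chr13:119690101-119690400, plus strand): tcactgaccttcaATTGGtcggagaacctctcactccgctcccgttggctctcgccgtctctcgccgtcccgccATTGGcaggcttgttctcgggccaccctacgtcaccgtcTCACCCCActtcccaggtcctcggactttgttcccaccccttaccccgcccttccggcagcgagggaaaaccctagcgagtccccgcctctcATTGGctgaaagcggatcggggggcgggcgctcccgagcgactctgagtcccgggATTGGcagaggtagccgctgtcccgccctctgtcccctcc
Srebf2 (chr15:82147019-82147318, plus strand): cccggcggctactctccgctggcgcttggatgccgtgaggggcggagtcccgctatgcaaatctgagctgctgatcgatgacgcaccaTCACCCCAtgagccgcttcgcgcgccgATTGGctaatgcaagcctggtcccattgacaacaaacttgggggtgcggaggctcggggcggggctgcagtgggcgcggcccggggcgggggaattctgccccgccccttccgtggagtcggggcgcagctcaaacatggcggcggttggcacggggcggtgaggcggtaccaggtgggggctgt
Msmo1 (chr8:64733529-64733828, minus strand): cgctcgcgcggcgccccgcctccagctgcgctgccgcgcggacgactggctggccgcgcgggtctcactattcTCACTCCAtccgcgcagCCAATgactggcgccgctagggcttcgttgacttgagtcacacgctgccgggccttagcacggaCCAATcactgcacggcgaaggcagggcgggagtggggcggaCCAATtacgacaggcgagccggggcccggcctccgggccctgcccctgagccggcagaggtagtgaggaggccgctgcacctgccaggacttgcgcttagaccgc
Ebp (chrX:8193463-8193762, minus strand): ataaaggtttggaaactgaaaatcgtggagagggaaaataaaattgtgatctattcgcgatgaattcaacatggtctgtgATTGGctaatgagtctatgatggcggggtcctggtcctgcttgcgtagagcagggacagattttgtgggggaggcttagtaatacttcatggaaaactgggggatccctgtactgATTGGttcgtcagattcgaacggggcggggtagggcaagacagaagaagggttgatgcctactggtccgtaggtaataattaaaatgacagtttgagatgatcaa
The sterol element began at position -137 from the annotated start in Hmgcs1, -162 in Srebf2 and -177 in Msmo1. The nearest CCAAT box began 39 bases from it in Hmgcs1, 27 in Srebf2 and 17 in Msmo1. A match describes the letters only.

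The libraries held 18566096 to 26779406 whole reads, recovered from the CPM values, so that 3 reads correspond to 0.100 to 0.143 CPM. Replicates of a group correlated across genes at Pearson r = 0.940 to 0.995. Summed levels of 12 neuronal markers were 183 to 1097 CPM in young, 871 to 1777 in untreated old, 2095 to 4930 in NMN and 1413 to 3607 in parabiosis tumours, and 0 of the 12 markers were at 0 in all libraries. The 12 markers of myelinating oligodendrocytes summed to 267 to 931, 605 to 799, 989 to 1859 and 589 to 1192 CPM in the same order. The 6 markers of oligodendrocyte precursors, which many gliomas also express, summed to 615 to 1616 CPM over the 12 libraries. Xist, which female cells express, was at 1.88 to 5.33 CPM in young replicate 3 and old replicates 1 and 2 and at 164 to 1127 CPM in the other 9 libraries. The Y-linked gene Ddx3y was at 34.0 to 132 CPM in all 12, against a label of female. Results were therefore also computed without those 3 libraries.

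All 28 genes were expressed in every tumour, over a wide range of levels. Per kilobase of exon, and as a mean over the 12 libraries, the highest was Scd2 at 170.0 CPM per kb, the stearoyl-CoA desaturase that prevails in mouse brain. Fasn (fatty acid synthase) at 48.8 and Acly (ATP citrate lyase, which supplies cytosolic acetyl-CoA) at 45.8 CPM per kb followed. Hmgcs1, the cytosolic HMG-CoA synthase, stood highest among the mevalonate enzymes at 30.0 CPM per kb. The lowest levels were those of Stard4 (a carrier of cholesterol between membranes) at 2.24, Lss (lanosterol synthase) at 1.98 and Tm7sf2 (a sterol reductase) at 0.645 CPM per kb. Per kilobase, Scd2 exceeded Scd1, the desaturase best known from liver and skin, in every library, by 5.26 times in NMN replicate 3 to 9.28 times in young replicate 2. The same ratio of Srebf2 to Srebf1 ran from 0.762 in young replicate 3 to 1.62 in NMN replicate 1.

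The levels varied about as much as those of other genes. From the lowest to the highest of the 12 libraries, CPM + 1 differed by a median of 1.69 times among the 28 genes, with a range of 1.27 to 2.56, and by a median of 1.80 times among all genes kept. The steadiest was Acly, at 215 to 273 CPM. The widest raw ranges were 2.67 times for Tm7sf2, 2.61 times for Fdft1 (squalene synthase), 2.49 times each for Insig1 and Srebf1, and 2.44 times for Scd1.

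**Figure D1:**
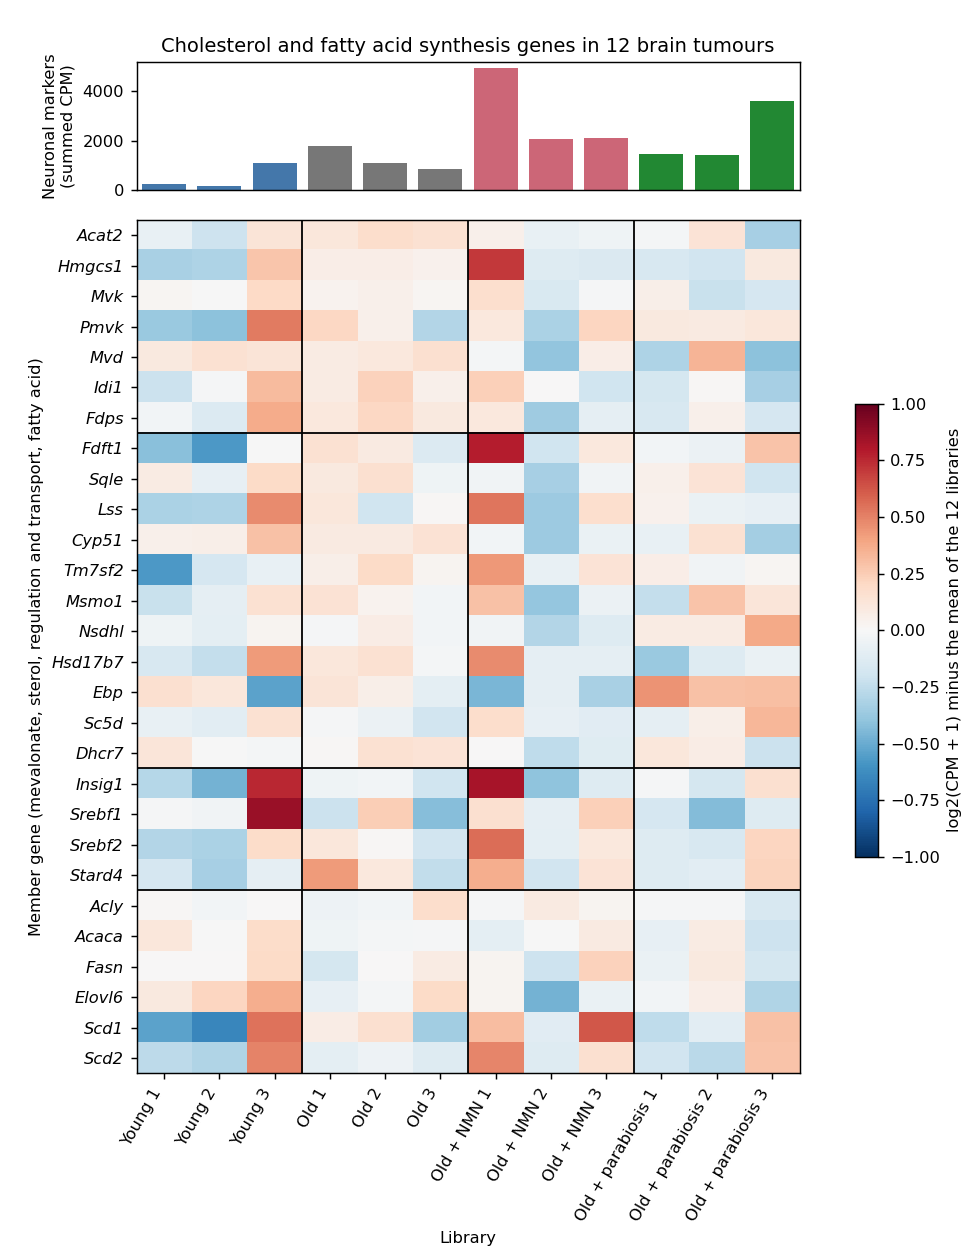
The lower panel plots, for the 28 genes in rows and the 12 libraries in columns, the log2 deviation of each gene from its mean over the libraries, and the upper bars give the summed CPM of 12 neuronal markers. Young replicate 3 and NMN replicate 1 are above the mean for most rows, and no group of 3 columns is of 1 colour throughout.

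No gene of the set passed the test in any of the 6 comparisons between groups. With limma on log2(CPM + 1), adjusted over all 15232 genes at a threshold of 0.05, 0 of 28 passed in each comparison. The share of all genes that passed was 8.15% in NMN against young and 0% in the other 5 comparisons, and 0% in the F test over the 4 groups. At an unadjusted p under 0.05 the set counted 0 genes in old against young (6.96% of all genes), 0 in NMN against old (10.3%) and 0 in parabiosis against old (5.61%). It counted 3 in NMN against young (25.7%), 1 in parabiosis against young (18.1%) and 2 in NMN against parabiosis (9.65%). On the recovered reads edgeR called 0 of the 28 in all 6 comparisons, against 0.611% of all genes in NMN against young and 0% in the other 5. DESeq2 called 1, Ebp, in NMN against parabiosis (1.59% of all genes with an adjusted p) and 0 elsewhere. Its shares of all genes were 0.474% in old against young, 0.303% in NMN against old, 0.29% in parabiosis against old, 15.6% in NMN against young and 6.43% in parabiosis against young. In bulk tissue, fewer cells of a type and less RNA per cell cannot be told apart, and this holds for all that follows.

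The intervals bound the difference of 1 gene at a time, with no allowance for the number of genes or comparisons. In the 3 main comparisons the 95% interval of the log2 difference lay within 1 of 0 for all 28 genes, on the log2(CPM + 1) scale, which understates the range in CPM of the lowest gene, Tm7sf2. In old against young the interval bounds reached from -0.94 (Srebf1) to 0.88 (Fdft1). In NMN against old they reached from -0.73 (Ebp) to 0.99 (Scd1), and in parabiosis against old from -0.72 (Hsd17b7) to 0.84 (Insig1). In the other 3 comparisons not all intervals lay within 1 of 0. In NMN against young 26 of 28 did, with a bound of 1.17 (Scd1). In parabiosis against young 27 did, with a bound of -1.05 (Srebf1), and in NMN against parabiosis 27, with a bound of -1.05 (Ebp). NMN and parabiosis share the 3 untreated old libraries as their reference, and 3 of the comparisons share the young libraries.

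Over the 6 comparisons, 15 of the 28 genes had overlapping groups throughout (44.2% of all genes). Fasn was among them, at 533, 533 and 607 CPM in young, 472, 532 and 562 CPM in untreated old, 541, 459 and 624 CPM in NMN and 509, 569 and 471 CPM in parabiosis tumours. The NMN group alone spanned the range of all 12 values. Scd2, the most abundant, was at 760.3, 739 and 1282 CPM in young and 796, 757 and 1110.3 CPM in parabiosis tumours, so that replicate 3 stood out in both groups. Among the kinases of the mevalonate route, Mvk was at 8.48 to 11.7 CPM and Pmvk at 10.5 to 20.9 CPM over the 12 libraries. The sterol enzymes Sqle (squalene epoxidase), Lss, Msmo1 (a methylsterol oxidase) and Sc5d spanned 58.9 to 85.1, 16.1 to 30.9, 36.3 to 58.6 and 28.9 to 42.1 CPM. Stard4 spanned 9.62 to 16.9 CPM and Scd1 71.2 to 174 CPM. Fdft1, Hmgcs1, Insig1, Srebf2 and Acly complete the 15.

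**Figure D2:**
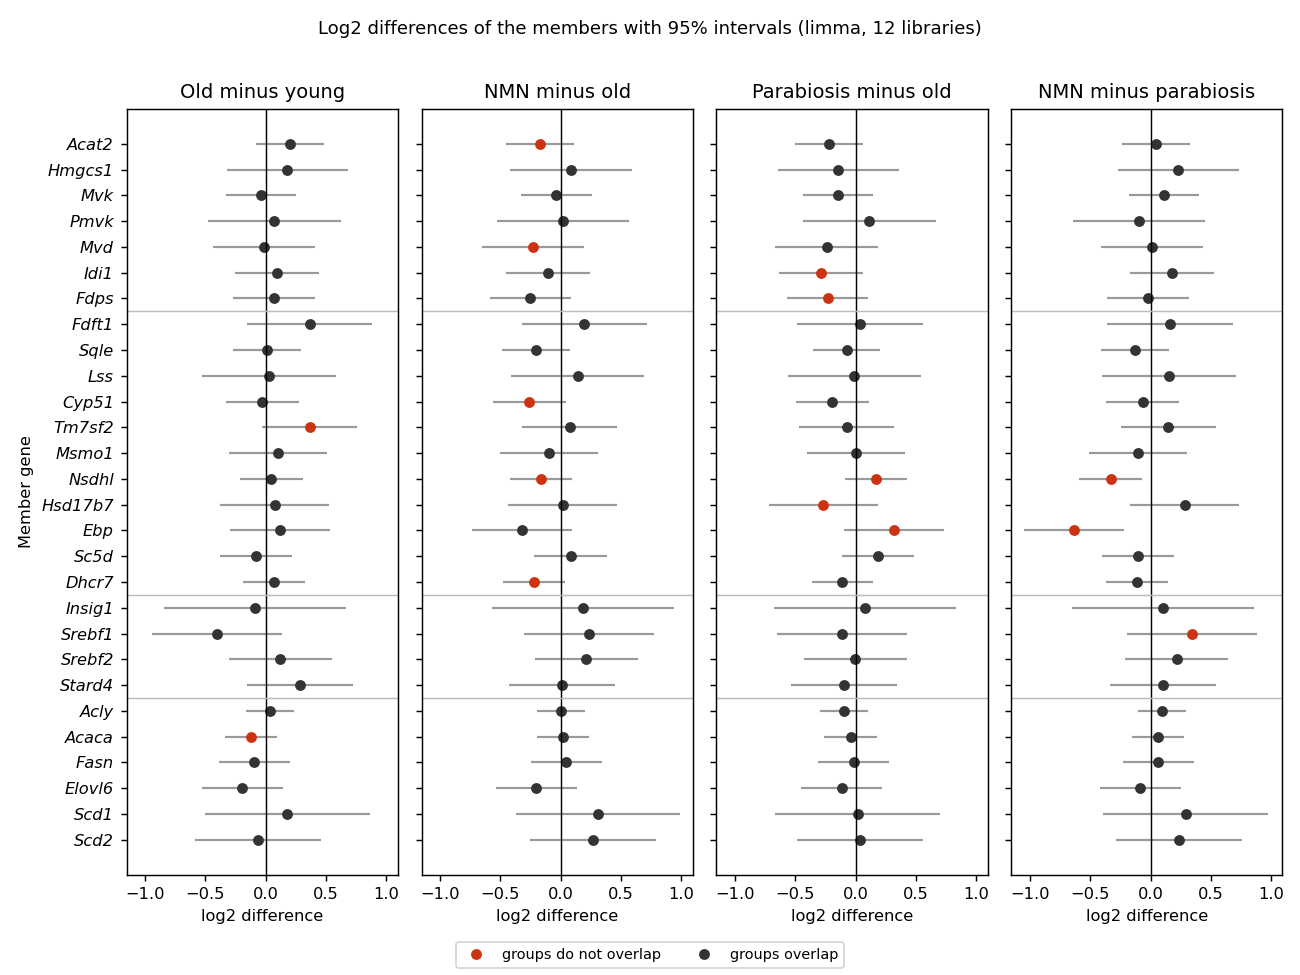
Points give the log2 difference of each of the 28 genes on the log2(CPM + 1) scale in 4 comparisons, bars its 95% interval from limma over 12 libraries, and red marks genes whose groups do not overlap. The intervals stay within 1 of 0 in the first 3 panels, and in NMN minus parabiosis that of Ebp reaches -1.05.

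Old against young tumours asked whether the age of the host goes with the level of these genes. The log2 difference was above 0 for 18 of 28 genes (53% of all genes), with a median of 0.057 against 0.015 over all genes, and under quantile normalization it was above 0 for 15 (39.9% of all genes). By role, 5 of 7 mevalonate, 9 of 11 sterol, 2 of 4 regulatory and transport and 2 of 6 fatty acid genes were above 0, with medians of 0.072, 0.069, 0.015 and -0.082. Without young replicate 2 the set's median was -0.038 with 12 of 28 above 0, and without young replicate 3 it was 0.20 with 22. Groups did not overlap for 2 genes, Tm7sf2 higher (6.95% of all genes) and Acaca lower in old (6.6%, and 13.6% in either direction).

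Tm7sf2 had the smallest p of this comparison. It was at 1.54, 2.38 and 2.60 CPM in the young and 2.96, 3.32 and 2.86 CPM in the old tumours, so that each old value was above each young one. The log2 difference was 0.36 ± 0.18 (SE, adjusted p = 0.724, limma). Parabiosis tumours were at 2.97, 2.70 and 2.85 CPM. Of the sequence of its transcripts, 21.2% in stretches of 31 bases also occurs in Vps51, which overlaps it on the same strand, so its values are uncertain. Acaca, the acetyl-CoA carboxylase that makes malonyl-CoA, stood at 311, 287 and 327 CPM in young and 279, 284 and 286 CPM in old tumours. The groups missed each other by a narrow margin, with a log2 difference of -0.12 ± 0.099 (adjusted p = 0.850, limma), and 53.2% of its transcript sequence is shared with Gm5182. In NMN tumours it was at 269, 287 and 307 CPM and in parabiosis tumours at 273, 305 and 250.2 CPM.

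Srebf1 was at 56.3, 55.5 and 104 CPM in young and 48.7, 67.3 and 42.0 CPM in old tumours. The highest value was that of young replicate 3, the groups overlapped, and the log2 difference was -0.40 ± 0.24 (adjusted p = 0.788, limma). Fdft1 was at 34.5, 30.7 and 46.2 CPM in young and 51.4, 49.2 and 41.9 CPM in old tumours, a log2 difference of 0.36 ± 0.24 (adjusted p = 0.809, limma). The lowest old value lay under the highest young one, and with the neuronal and myelin marker score as a covariate the difference turned to -0.12. Parabiosis tumours were at 45.3, 44.5 and 56.7 CPM. Acat2, the thiolase of the first step, was at 54.3, 49.5 and 62.8 CPM in young and 62.2, 64.9 and 63.9 CPM in old tumours. These groups overlapped only through young replicate 3, with a log2 difference of 0.20 ± 0.13 (adjusted p = 0.802, limma), and Acat3 shares 45.2% of the Acat2 sequence.

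NMN-treated against untreated old tumours had no gene past the test, and the signs varied with role and with 1 library. Of the 28 genes 16 were above 0 (51.6% of all genes), with a median log2 difference of 0.013 against 0.011 over all genes, and under quantile normalization 10 were (42.2% of all genes). Each of the 4 regulatory and transport genes was above 0, at a median of 0.20, as were 5 of 6 fatty acid genes, with a median of 0.033. Of the mevalonate genes 2 of 7 were, and of the sterol genes 5 of 11, with medians of -0.11 and -0.098. Without NMN replicate 1 the set's median was -0.15 with 7 of 28 above 0, and the regulatory and transport genes were at 2 of 4, with a median of -0.048. With the neuronal and myelin marker score as a covariate 3 of 28 were above 0, all of them fatty acid genes. Groups did not overlap for 5 genes, all lower with NMN (Acat2, Mvd, Cyp51, Nsdhl and Dhcr7, against 6.92% of all genes lower, 12.6% higher and 19.5% in either direction).

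Dhcr7, the reductase that makes cholesterol in the last step, was at 36.7, 40.4 and 39.9 CPM in untreated old and 36.3, 30.3 and 33.4 CPM in NMN tumours. Old replicate 1 and NMN replicate 1 were nearly equal, and the log2 difference was -0.22 ± 0.12 (adjusted p = 0.489, limma). Young tumours were at 39.5, 36.1 and 35.8 CPM and parabiosis tumours at 39.4, 38.3 and 31.04 CPM. Cyp51, the lanosterol demethylase, was at 105, 104 and 108 CPM in untreated old and 96.1, 76.2 and 93.5 CPM in NMN tumours. Each NMN value was below each old one, and the log2 difference was -0.26 ± 0.14 (adjusted p = 0.492, limma). Parabiosis tumours, at 93.4, 109 and 77.2 CPM, spanned both groups.

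Fdps, which makes farnesyl diphosphate, was at 51.4, 55.3 and 51.0 CPM in untreated old and 51.3, 36.9 and 44.7 CPM in NMN tumours. NMN replicate 1 was as high as the old tumours, and the log2 difference was -0.25 ± 0.15 (adjusted p = 0.513, limma). Because 67.5% of the Fdps sequence occurs in other genes, mostly Gm43738, which overlaps it on the same strand, its level is uncertain. Gm43738 has no deposited values, so a division of reads between the 2 genes cannot be seen. Young tumours were at 46.8, 43.3 and 61.7 CPM. Acat2 was at 59.5, 54.3 and 55.6 CPM with NMN, all under the untreated old values given above. Mvd, the mevalonate diphosphate decarboxylase, had means of 19.0 ± 0.567 CPM (SD, n = 3) in untreated old and 16.2 ± 2.83 CPM in NMN tumours. Nsdhl, a dehydrogenase of sterol demethylation, had 22.1 ± 0.907 and 19.7 ± 1.84 CPM.

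Srebf2, Scd2 and Insig1 were above 0 with a wide spread among the NMN tumours. Srebf2 was at 131, 82.8 and 95.5 CPM with NMN and 96.1, 89.5 and 77.5 CPM in untreated old tumours, a log2 difference of 0.21 with a 95% interval from -0.22 to 0.64. Scd2 was at 1282, 832 and 1021 CPM with NMN and 852, 880.2 and 833 CPM in untreated old tumours, with an interval from -0.26 to 0.79. In both genes NMN replicate 1 was the highest of the group and NMN replicate 2 the lowest. That library pair also set the spread of Insig1, at 100.5 CPM in NMN replicate 1 and 42.3 CPM in NMN replicate 2, against 48.8 to 55.2 CPM in untreated old tumours.

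Parabiosis against untreated old tumours had 19 of the 28 genes below 0 and 9 above, with none past the test. The log2 difference was above 0 for 9 of 28 genes (54.1% of all genes), with a median of -0.074 against 0.021 over all genes, and under quantile normalization 5 were above 0 (45.2% of all genes). Among the mevalonate enzymes 1 of 7 was above 0, with a median of -0.22. The sterol, regulatory and fatty acid genes stood at 5 of 11, 1 of 4 and 2 of 6, with medians of -0.011, -0.050 and -0.029. Without the 3 libraries low in Xist, which leaves 1 untreated old tumour, 13 of 28 were above 0 and the median was -0.028, with all 4 regulatory and transport genes and 6 of 11 sterol genes above 0. Groups did not overlap for 5 genes, Ebp and Nsdhl higher (6.99% of all genes) and Idi1, Fdps and Hsd17b7 lower with parabiosis (6.7%, and 13.7% in either direction).

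Idi1, the isomerase of the isoprenoid unit, was at 66.8, 74.1 and 65.3 CPM in untreated old and 55.8, 63.7 and 49.9 CPM in parabiosis tumours. Each parabiosis value was below each old one, with a log2 difference of -0.28 ± 0.16 (adjusted p = 0.904, limma), and 20.9% of its sequence is shared with Gm13502. Young tumours, at 54.2, 62.4 and 78.6 CPM, and NMN tumours, at 74.5, 63.3 and 54.6 CPM, spanned the values of both. Fdps was at 42.4, 49.5 and 42.2 CPM with parabiosis, all under the old values, a log2 difference of -0.23 ± 0.15 (adjusted p = 0.904, limma). Acat2 was at 56.6, 63.1 and 45.4 CPM with parabiosis, and its highest value lay among the old ones, with a log2 difference of -0.22 ± 0.13 (adjusted p = 0.904, limma). Hsd17b7, a ketosteroid reductase of the sterol route, was at 21.8, 22.4 and 19.8 CPM in untreated old and 15.3, 18.3 and 19.2 CPM in parabiosis tumours, which were all lower. Hmgcs1 did not share this order: it was at 121, 118 and 144 CPM with parabiosis and at 139 to 142 CPM in untreated old tumours.

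Ebp, the sterol isomerase that moves a ring double bond, had the smallest p of the set in the F test over the 4 groups (adjusted p = 0.246, limma). The gene lies on chromosome X at 8185329 to 8193512 on the minus strand. It was at 13.7, 13.2 and 8.06 CPM in young, 13.3, 12.7 and 11.3 CPM in untreated old, 8.54, 11.4 and 9.51 CPM in NMN and 17.0, 15.1 and 15.2 CPM in parabiosis tumours. The parabiosis values were above all 9 others, and the lowest value of all was that of young replicate 3. Parabiosis exceeded untreated old by a log2 difference of 0.32 ± 0.19 (adjusted p = 0.904, limma), and NMN differed from untreated old by -0.32 ± 0.19 (adjusted p = 0.506, limma).

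NMN against parabiosis put Ebp farthest apart. The means were 9.80 ± 1.43 CPM (SD, n = 3) with NMN and 15.7 ± 1.07 CPM with parabiosis, a ratio of 0.623 and a log2 difference of -0.64 ± 0.19 with a 95% interval from -1.05 to -0.22 (adjusted p = 0.332, limma). On the recovered reads DESeq2 gave an adjusted p of 0.0427 and edgeR one of 0.309. Over the 22 alternative settings tried, the difference ran from -0.74 to -0.55. With neuronal and myelin markers as a covariate it was -0.56, and without the 3 libraries low in Xist it was the same as with them, since these lie in other groups.

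Nsdhl, also on chromosome X (72918557 to 72958514, plus strand), followed in that comparison. It was at 21.4, 17.7 and 20.0 CPM with NMN and 23.2, 23.3 and 28.8 CPM with parabiosis, without overlap, a log2 difference of -0.33 ± 0.12 (adjusted p = 0.401, limma). It was at 21.3, 20.5 and 22.4 CPM in young and 21.7, 23.2 and 21.5 CPM in untreated old tumours, the highest just under the parabiosis values. The third gene without overlap was Srebf1, at 63.5, 53.2 and 67.0 CPM with NMN and 50.4, 41.7 and 51.9 CPM with parabiosis (log2 difference 0.35 ± 0.24, adjusted p = 0.646, limma). Hsd17b7 was at 28.3, 18.7 and 18.8 CPM with NMN and 17.8, 16.9 and 27.3 CPM in young tumours, and NMN overlapped with parabiosis (0.28 ± 0.20, adjusted p = 0.652, limma). Of the 28 genes 18 were above 0 (54.1% of all genes), with a median of 0.079 against 0.026 over all genes, and 1 was higher and 2 lower without overlap (6.97% and 7.83% of all genes, 14.8% in either direction). Without NMN replicate 1 the median was -0.044 with 12 of 28 above 0.

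**Figure D3:**
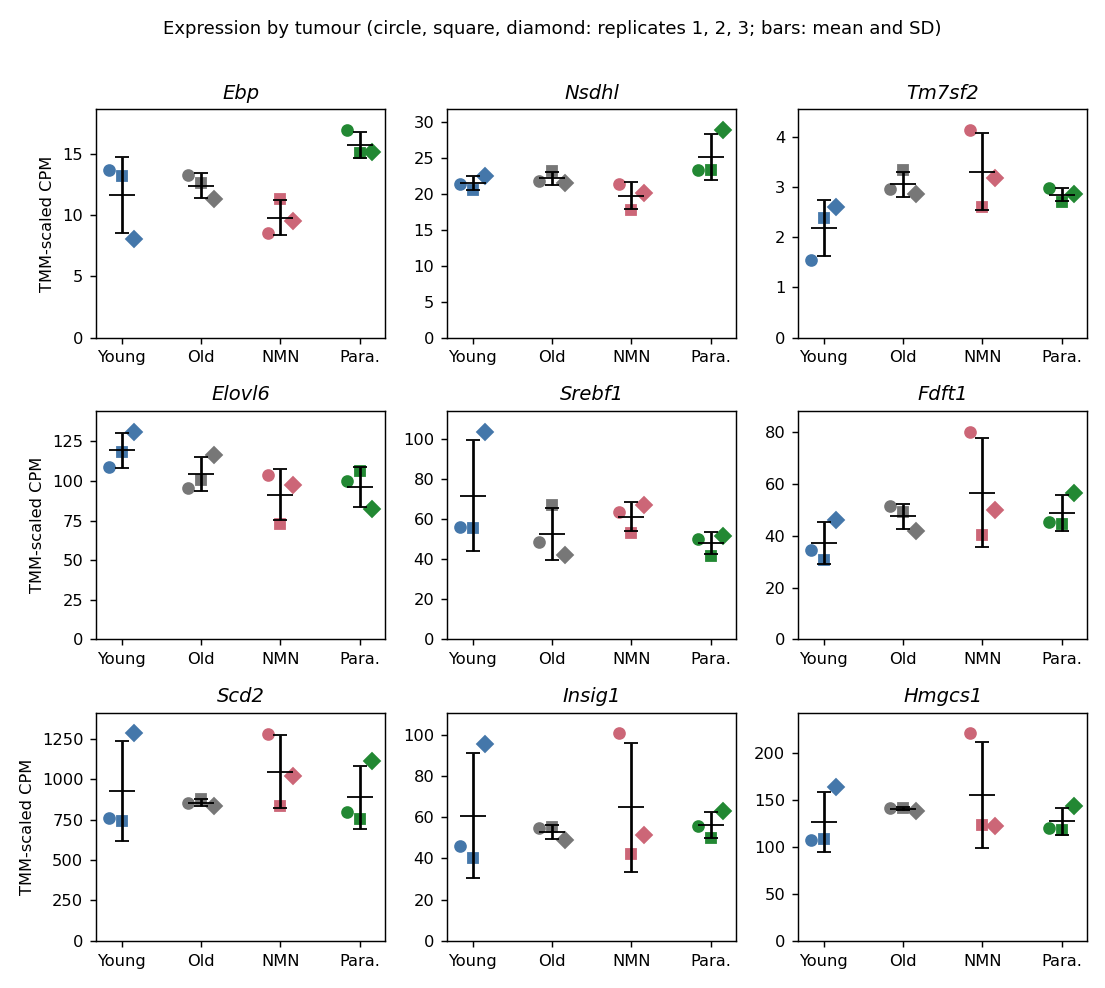
Each panel gives the TMM-scaled CPM of 1 gene in the 12 tumours (circle, square and diamond for replicates 1, 2 and 3) with the mean and SD of each group of 3. Ebp separates parabiosis, at 15.1 to 17.0 CPM, from all other tumours, while in Srebf1, Scd2, Insig1 and Hmgcs1 single libraries such as young replicate 3 and NMN replicate 1 stand above the rest.

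Both treated groups were also set against young tumours. In NMN against young, 15 of 28 genes were above 0 (48.3% of all genes), with a median of 0.0042 against -0.014 over all genes, and 1 was higher and 3 lower without overlap (18.5% and 10.7% of all genes, 29.2% in either direction). The median was -0.066 without young replicate 1, -0.061 without young replicate 2 and -0.093, with 8 of 28 above 0, without NMN replicate 1. Elovl6, the elongase of saturated C16 chains, was at 109, 118 and 131 CPM in young, 104, 73.0 and 97.2 CPM in NMN and 99.9, 106 and 82.5 CPM in parabiosis tumours. Each young value was above each treated one, with log2 differences of -0.40 ± 0.15 for NMN (adjusted p = 0.131, limma) and -0.31 ± 0.15 for parabiosis (adjusted p = 0.306, limma). Untreated old tumours, at 95.8, 100.4 and 116 CPM, overlapped with the young ones. Tm7sf2 was at 4.13, 2.61 and 3.17 CPM with NMN, above all young values, by a narrow margin in NMN replicate 2 (0.44 ± 0.18, adjusted p = 0.151, limma).

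Fdft1 was at 80.2, 40.1 and 49.8 CPM with NMN, with NMN replicate 1 far above the others, a log2 difference of 0.56 ± 0.24 (adjusted p = 0.167, limma), which turned to -0.30 with the marker score as a covariate. The young values of Cyp51 were 102, 103 and 120.5 CPM, all above the NMN ones (-0.29 ± 0.14, adjusted p = 0.215, limma). In parabiosis against young, 12 of 28 were above 0 (51.6% of all genes), with a median of -0.028 against 0.011, and 3 were higher and 2 lower without overlap (13.7% and 10.2% of all genes, 23.9% in either direction). Without young replicate 3 the median was 0.13 with 16 of 28 above 0. Ebp was higher without overlap (0.44 ± 0.19, adjusted p = 0.257, limma), as was Nsdhl (0.22 ± 0.12, adjusted p = 0.359, limma). Srebf1 was lower without overlap (-0.52 ± 0.24, adjusted p = 0.295, limma). Quantile normalization moved the median of all genes from -0.014 to -0.16 in NMN against young and from 0.011 to -0.10 in parabiosis against young. The set's medians there were -0.077 and -0.082, above these shifted medians.

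Tumours of the same group also differed from each other. In young tumours 24 of 28 genes were highest in replicate 3, the young library with the most neuronal markers, against 44.5% of all genes. Ebp and Dhcr7, 2 of the 28, were lowest there, against 45.5% of all genes. In NMN tumours 20 of 28 were highest in replicate 1, again the library with the most neuronal markers (40.7% of all genes), and 3, Ebp, Acly and Acaca, were lowest (40.1% of all genes). In parabiosis tumours the corresponding library, replicate 3, split the set: 12 were highest and 12 lowest there, against 44.4% and 38.1% of all genes. In untreated old tumours, where neuronal markers varied least, replicate 1 was highest for 9 of 28 (36.6% of all genes) and lowest for 7 (35.0%).

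In parabiosis replicate 3 the genes divided as follows, close to the split of all genes (44.4% highest and 38.1% lowest). Hmgcs1, Pmvk, Fdft1, Nsdhl, Hsd17b7, Sc5d, Insig1, both Srebf genes, Stard4, Scd1 and Scd2 were highest there. Acat2, Mvd, Idi1, Fdps, Sqle, Lss, Cyp51, Dhcr7, Acly, Acaca, Fasn and Elovl6 were lowest there, and these include 4 of the 6 fatty acid enzymes. In all 4 groups, 5 of 28 genes were highest in the library with the most neuronal markers, a share near that of all genes (15.2%). These were Hmgcs1, Fdft1, Sc5d (a sterol desaturase), Srebf2 and Stard4. Cycling markers ran the other way, with sums of 928 CPM in young replicate 3, 756 in NMN replicate 1 and 926 in parabiosis replicate 3, against 1147 to 1957 CPM in the other libraries of these groups. The part of neuronal tissue, of cell cycling and, for young replicate 3, of low Xist in these levels was not tested.

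**Figure D4:**
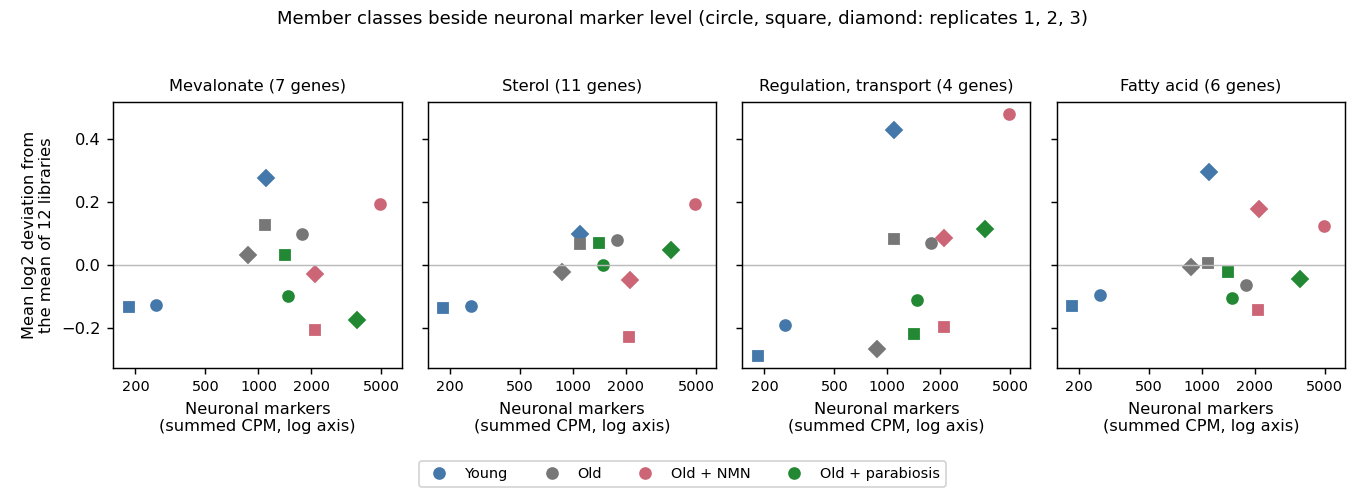
Each panel sets the mean log2 deviation of 1 class of genes against the summed CPM of 12 neuronal markers (log axis) in the 12 tumours, coloured by group. Within the young and NMN groups the library with the most neuronal markers is the highest or near the highest in all 4 classes, and parabiosis replicate 3 is the lowest of its group for the mevalonate genes.

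With the neuronal and myelin marker score as a covariate, the set's median was below 0 in 5 of the 6 comparisons. The score itself differed by group. It ran from -1.98 to -0.14 in young, -0.40 to 0.31 in untreated old, 0.51 to 1.36 in NMN and 0.075 to 1.09 in parabiosis tumours. Young did not overlap with either treated group, nor NMN with untreated old. In those comparisons the parts of score and group cannot be told apart, and the adjusted differences reach beyond the shared range. Parabiosis and untreated old overlapped only through old replicate 1, and young and untreated old only through young replicate 3. The fit used 1 slope of the score for all 12 libraries, so the medians of the 6 comparisons are not separate results. The number of genes above 0 was 6 of 28 in old against young (median -0.12), 3 in NMN against old (-0.19), 3 in parabiosis against old (-0.21), 3 in NMN against young (-0.35) and 5 in parabiosis against young (-0.30). In NMN against parabiosis it was 17 of 28 (0.034). The medians of all genes in these fits ran from 0.013 to 0.046. No gene of the set passed the test there either, where 0% to 0.427% of all genes did. In parabiosis against young the smallest adjusted p were those of Insig1 (-1.16, adjusted p = 0.0564, limma) and Scd2 (-0.82, adjusted p = 0.0564, limma). Srebf1 (-1.16) and Hsd17b7 (-0.82) followed with an adjusted p of 0.0597 each (limma), and then Ebp (0.88, adjusted p = 0.0681, limma).

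Genes around the 2 routes were counted in 5 further lists: SREBP processing (10 genes), isoprenoid branches (10), sterol efflux and storage (14), other fatty acid genes (20 with values) and fatty acid oxidation (14). None passed in 5 of the 6 comparisons. In NMN against young, where 8.15% of all genes passed, 4 did: 2 of 14 in sterol efflux and storage rose, 1 of 20 other fatty acid genes rose, and 1 of 14 in fatty acid oxidation fell. The other 2 lists had none.

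Abcg1, an exporter of cholesterol to lipoproteins, was at 32.3, 27.7 and 39.5 CPM in young and 76.5, 52.2 and 54.4 CPM in NMN tumours, without overlap (log2 difference 0.85 ± 0.19, adjusted p = 0.0314, limma). Cyp46a1, the neuronal hydroxylase that turns over brain cholesterol, was named after its values were seen. It was at 2.36, 1.33 and 11.0 CPM in young and 49.0, 17.9 and 18.4 CPM in NMN tumours (2.54 ± 0.69, adjusted p = 0.0487, limma). With the marker score as a covariate its difference turned to -0.52. Mlxipl, a carbohydrate-responsive factor that drives lipogenic genes, was at 0.41 CPM, at 0 and at 0.81 CPM in young and at 2.15, 1.79 and 2.13 CPM in NMN tumours (1.14 ± 0.22, adjusted p = 0.0269, limma). Acadm, an acyl-CoA dehydrogenase of mitochondrial oxidation, fell from 52.2 ± 5.99 to 36.1 ± 4.72 CPM (SD, n = 3), by 0.52 ± 0.12 on the log2 scale (adjusted p = 0.0335, limma).

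These 4 calls come from a comparison whose count of calls moved with single libraries. Of 1242 calls in NMN against young, 1084 were higher, and with quantile normalization 734 of 1070 were. The count was 0 without young replicate 1, young replicate 2 or NMN replicate 3, 2 without NMN replicate 1, 478 without old replicate 2 and 771 without parabiosis replicate 1. It was 1953 without parabiosis replicate 3 and 2129 without young replicate 3. Abcg1 kept its call in 14 of 22 alternatives, Mlxipl in 14 of 21, Acadm in 12 of 22 and Cyp46a1 in 6 of 22.

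Among list genes with the smallest F test p, Abca1, the exporter of cholesterol to apolipoprotein A-I, was at 385 ± 62.1 CPM in young, 233 ± 50.2 CPM in NMN and 216 ± 22.8 CPM in parabiosis tumours (SD, n = 3). Its log2 differences from young were -0.74 with NMN (adjusted p = 0.0671, limma) and -0.82 with parabiosis (adjusted p = 0.136, limma). Mbtps2, the protease that makes the last cut in SREBP activation, was at 62.1 ± 12.8 CPM in parabiosis and 45.7 ± 0.831 CPM in untreated old tumours, without overlap (0.41 ± 0.14, adjusted p = 0.837, limma). Mid1ip1, which helps acetyl-CoA carboxylase to form filaments, was at 59.6 ± 8.12 and 41.9 ± 1.72 CPM, also without overlap (0.49 ± 0.13, adjusted p = 0.837, limma).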

How the data were processed

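RNA of 12 tumours was sequenced with paired reads after ribosomal depletion and stranded library preparation, per the labels' protocols. Per the submitters' processing notes, reads went through FastQC, Bowtie2 2.1.0 and RSEM 1.2.15, and edgeR was used, with mm10 and GRCm38. The file deposited by the authors holds CPM per gene after TMM scaling. RSEM divides reads between similar genes, so shared sequence was counted in GENCODE vM21 transcripts as 31-base stretches, with the strand setting not given in the sources used here. Of the genes named for shared sequence, Gm43738, Gm5182 and Gm13502 have no deposited values. Over the 12 libraries Acat3 was at 2.24 to 4.92 CPM and Vps51 at 14.85 to 25.39 CPM. In each library 100% of values were whole multiples of 1 read at a tolerance of 0.01.

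The 28 genes and all lists were chosen with earlier results of these data known. CPM values were taken as log2(CPM + 1), on which fold changes of low genes are understated. Genes with at least 1 CPM in at least 3 libraries entered a single fit with a mean for each group and a variance trend (limma 3.58.1 under R 4.3.3). p-values are two-sided and adjusted by Benjamini-Hochberg over 15232 genes. Each library was taken as 1 mouse, which the sample titles do not state, and p-values measure the spread between these libraries. edgeR 4.0.16 and DESeq2 1.42.0 were run on the recovered reads. The marker score averages the neuronal and the myelin list, each as mean log2 deviation. Promoters come from RefSeq (GRCm38.p6), and exon lengths and gene coordinates from GENCODE vM21 (GRCm38).

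The genes named with statistics were the 4 with the smallest p in each comparison, and values in every library were given for these and for Ebp and the 3 genes with the highest mean CPM (Acaca, Fasn and Scd2). Mvd, Nsdhl and Hsd17b7 were also described where their groups did not overlap, Srebf2, Insig1 and Hmgcs1 for their spread, and 5 genes for their adjusted p with the marker score, after their values were seen. Up to 2 genes per pathway list, by F test p, could be named. Limma was tested on simulated data.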

Additional observations from a re-analysis of the deposited data

How the results depend on the processing

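The set's result of 0 genes called held in 130 of 132 alternative counts (22 settings, 6 comparisons). The exceptions were 1 gene, Ebp, in NMN against parabiosis with DESeq2, and 1, Scd1, in NMN against young without young replicate 3 (0 to 1 over left-out libraries). Of all genes, 1.59% and 14% were called in these fits. In most of the 132 fits no gene of the whole table was called, so a count of 0 for the set was fixed there. Of 528 alternative values of the genes named with statistics, 525 kept direction and side of the threshold, 1 (Ebp) passed it, and 2 reversed, Fdft1 with the marker score at -0.12 in old against young and -0.30 in NMN against young. Many of the 22 settings could not change the direction of these genes. A changed filter, a replicate block, a fit of only the 2 groups, or leaving out a library of another group moves only the p-values. Among pathway genes in NMN against young, the marker score reversed Mid1ip1 (-0.071), Hadha (0.013) and Cyp46a1 (-0.52). The cause was not tested.

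The set's median with the marker score was -0.12 in old against young, -0.19 in NMN against old, -0.21 in parabiosis against old, -0.35 in NMN against young and -0.30 in parabiosis against young, where it was 0.13 without the libraries low in Xist. Over left-out libraries, without the marker score, the medians of the 5 comparisons in the same order ran from -0.038 (without young replicate 2) to 0.20 (without young replicate 3), from -0.15 (without NMN replicate 1) to 0.090, from -0.091 to -0.034, from -0.093 to 0.11 and from -0.11 to 0.13 (without young replicate 3), and from -0.044 to 0.16 in NMN against parabiosis.

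Counts of all genes called moved more. With DESeq2 they were 72 in old against young, 46 in NMN against old, 44 in parabiosis against old, 2367 in NMN against young, 977 in parabiosis against young, 232 in NMN against parabiosis and 1614 in the F test. For NMN against young they were 742 with no filter, 709 with 1 CPM in all 12 libraries, 0 with the marker score, 29 with only those 2 groups fitted, 93 with edgeR and 0 to 2129 over left-out libraries. The marker score gave 1 in old against young and 65 in parabiosis against young. Leaving out the libraries low in Xist gave 2 in parabiosis against old, 327 in parabiosis against young, 2 in NMN against parabiosis and 11 in the F test, which gave 3 with no filter. Left-out libraries gave 0 to 2 (without young replicate 3) in old against young, 0 to 1 in parabiosis against old and in NMN against parabiosis, 0 to 701 in parabiosis against young and 0 to 689 in the F test (both highest without young replicate 3, and the latter 93 without parabiosis replicate 3).

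The sample titles name no pairing by replicate number, and the main fit used none. Among pairs of libraries from different groups, 18 shared a number and 36 did not. Same-numbered libraries correlated at -0.50 to 0.60 in their deviations and others at -0.64 to 0.59. Of the 12 libraries, 8 correlated best with their own number, and what they share was not tested. Since each group holds 1 library of each number, a replicate block cannot change the log2 differences, and the set's median in old against young stayed at 0.057. With the block 0 genes of the set were called in each comparison, against 9.03% of all genes in NMN against young and 0% elsewhere. Calls in NMN against young numbered 1376, against 1242 without it. The lowest level in the set, Tm7sf2, rests on at least 34 reads per library.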

Other observations

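Of the 10 genes of SREBP processing, 8 were lower in old than in young tumours, with a median log2 difference of -0.12 against 0.015 over all genes, and 3 were lower without overlap (6.6% of all genes). Of the 14 genes of fatty acid oxidation, 11 were lower with NMN than in untreated old tumours, where 51.6% of all genes were higher. Their median was -0.15 against 0.011. This list was also lower for 11 of 14 genes in old against young and in NMN against parabiosis. It was lower for 12 in NMN against young, 8 in parabiosis against young and 5 in parabiosis against old. Hadha, a subunit of the mitochondrial trifunctional enzyme, was at 119.7 ± 12.8 CPM with NMN and 146 ± 6.79 CPM in untreated old tumours (SD, n = 3), a log2 difference of -0.29 ± 0.11 (adjusted p = 0.480, limma). No gene of either list passed the test in these comparisons. At an unadjusted p under 0.05 the counts were 0 of 10 (6.96% of all genes) and 2 of 14 (10.3% of all genes).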
